A study of Mus musculus with 12 samples.

Results

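The T cell receptor gene segments are the variable and constant segments from which the alpha, beta, gamma and delta chains of the receptor are built. They were taken by name from a table of gene counts, as every entry whose symbol is a variable or constant segment of 1 of the 4 loci and that had at least 3 counts summed over 12 libraries. In all, 186 names fitted the pattern and 109 of the 56832 entries of the table met both conditions. Of the other 77 names, 74 had no count, 2 had 1 count and 1 had 2 counts; 3 segments with 3 counts and 3 with 4 counts lay just inside the limit. The 109 segments were 69 alpha variable, 22 beta variable, 7 gamma variable and 3 delta variable segments, together with Trac, Trbc1, Trbc2, Trdc and 4 gamma constant genes.

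The libraries were made by RNA sequencing of macrophages sorted from mouse bone marrow by the surface signature CD45+, F4/80+, Ly6g- and Ly6c-, in a study whose title concerns lactate, its receptor GPR81 and macrophage polarization in acute myeloid leukemia. Libraries came from leukemic and non-leukemic mice of both sexes, with 3 libraries in each of these 4 groups. The leukemic mice had late-stage disease grown from transplanted bcCML model cells, and the labels of their libraries give day 11; bcCML stands for blast-crisis chronic myeloid leukemia. Strain, age, further alleles and whether replicates were separate animals are not given in the sources used here, so a p here reflects differences among libraries, which may be technical. Each leukemic library is set against healthy mice, and the labels name no healthy mice that received a mock transplant.

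A T cell receptor is a pair of chains, alpha with beta or gamma with delta, held in the membrane by the CD3 proteins. In the thymus each chain gene is assembled by joining 1 variable segment to a joining segment, with a diversity segment between them in the beta and delta chains, and the joined part is spliced to a constant segment in the transcript. A rearranged T cell therefore carries few variable segments in its RNA, while a population of T cells carries many. The delta locus lies inside the alpha locus, so that joining an alpha chain removes the delta segments of that chromosome. Constant genes can also be transcribed without being rearranged, in T cell precursors and other lymphoid cells, so counts of a constant gene alone do not show an assembled chain.

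Non-leukemic libraries held 16911827 to 26611831 counts in total and leukemic libraries 22437689 to 30014855, and levels are given below as CPM, counts scaled by these totals. A count of 0 allows up to 3 counts, or 0.1 to 0.177 CPM. A pair of libraries stood apart. Female leukemic replicate 1 had counts for 17891 genes against 19521 to 21247 in the other libraries. It gave 7.66% of its counts to a list of 10 B cell genes, against 5.115% in female leukemic replicate 3 and 0.402 to 2.24% in the rest. Male non-leukemic replicate 3 gave 0.338% to a list of macrophage and sort-gate genes against 0.0882 to 0.168% in the others. Adgre1, which encodes F4/80, was found in every library, at 121 ± 68.1 CPM (SD, n = 6) in non-leukemic and 52.8 ± 12.3 CPM (SD, n = 6) in leukemic libraries. In these bulk libraries more T cells and more receptor RNA per T cell cannot be told apart.

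How well a count can be tied to 1 segment differs between the loci, so the sequences that decide it are shown first. They come from the GENCODE M21 transcripts on GRCm38, whereas the counts were made on GRCm39, and no coordinates are given for that reason. All 186 names were found in that annotation, with the alpha and delta loci on chromosome 14, the beta locus on chromosome 6 and the gamma locus on chromosome 13. Trbc1 and Trbc2, the alternative constant genes of the beta chain, share 95.6% of their coding bases and have an identical run of 259 bases. Of their 23 differing bases, 22 lie in the last 150 coding bases, printed 5′ to 3′ with these bases in capitals.
Trbc1: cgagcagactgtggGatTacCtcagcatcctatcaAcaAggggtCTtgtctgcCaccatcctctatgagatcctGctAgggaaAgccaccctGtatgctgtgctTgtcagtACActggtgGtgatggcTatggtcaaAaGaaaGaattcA
Trbc2: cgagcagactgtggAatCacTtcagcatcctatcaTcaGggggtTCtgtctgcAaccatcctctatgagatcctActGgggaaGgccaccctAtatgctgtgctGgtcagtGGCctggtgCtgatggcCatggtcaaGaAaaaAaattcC

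In the gamma locus Trgc1 and Trgc2 are 97.4% identical over their aligned coding bases, and Trgc1 and Trgc4 are 77.3% identical. The first 120 coding bases of the 3 genes are shown because the balance between them differed between the conditions, with capitals where a base differs from Trgc1, at 2 positions in Trgc2 and 14 in Trgc4.
Trgc1: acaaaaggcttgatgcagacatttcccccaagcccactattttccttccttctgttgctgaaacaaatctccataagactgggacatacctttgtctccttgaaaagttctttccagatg
Trgc2: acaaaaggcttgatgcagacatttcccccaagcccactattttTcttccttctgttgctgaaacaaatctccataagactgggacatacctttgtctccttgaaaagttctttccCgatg
Trgc4: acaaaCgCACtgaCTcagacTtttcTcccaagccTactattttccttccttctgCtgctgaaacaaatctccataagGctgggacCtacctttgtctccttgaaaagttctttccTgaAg
No stretch of 50 bases of the Trgc4 transcript occurred in another receptor segment, against 29.6% of such stretches in Trgc1.

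Mouse alpha variable segments exist in duplicated copies. Trav9-1 and Trav9d-1 differ at 2 of 337 coding bases, both of which lie in the stretch shown here, coding bases 145 to 244, with the differing bases in capitals.
Trav9-1: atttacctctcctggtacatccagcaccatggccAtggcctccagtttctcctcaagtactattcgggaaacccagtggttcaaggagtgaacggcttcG
Trav9d-1: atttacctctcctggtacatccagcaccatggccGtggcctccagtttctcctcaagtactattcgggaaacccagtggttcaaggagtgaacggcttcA
Among the 69 alpha variable segments analysed, a median of 42.0% of their 50-base stretches were identical to part of another segment, and 8 segments shared none. In the 61 alpha variable segments left out for low counts the median was 100%, and 41 had no stretch of their own. Of the 22 beta variable segments, 19 shared none. The sources used here do not say how reads that fit several segments were counted, so single alpha variable segments are uncertain, and beta variable segments are the better resolved.

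The ends of 5 variable segments are shown because these segments led their locus in different libraries. Capitals mark the codon of the conserved cysteine, after which the joined and highly variable part of the chain begins.
Trav13-1: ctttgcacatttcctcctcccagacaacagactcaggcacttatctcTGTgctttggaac
Trav13-5: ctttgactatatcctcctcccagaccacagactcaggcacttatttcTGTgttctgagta
Trbv3: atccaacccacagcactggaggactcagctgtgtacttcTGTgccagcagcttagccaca
Trbv13-2: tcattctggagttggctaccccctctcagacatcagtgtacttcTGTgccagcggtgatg
Trbv19: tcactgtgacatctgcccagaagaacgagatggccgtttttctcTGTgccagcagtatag

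Receptor transcripts were few in the non-leukemic libraries and higher in every leukemic library. The 109 segments together ran from 36.5 CPM (median 57.0) to 104 CPM in non-leukemic and from 282 CPM (median 632) to 919 CPM in leukemic libraries, and the groups did not overlap. The mean was 62.7 ± 23.8 CPM (SD, n = 6) against 626 ± 230 CPM (SD, n = 6), a 9.99-fold ratio, or 0.00627% against 0.0626% of all counts. Female non-leukemic replicate 1 was the highest of its condition, female leukemic replicate 2 the lowest of its condition and male leukemic replicate 2 the highest of all. The 8 constant genes held 79.9% of the 110174 receptor counts.

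Of the 109 segments, 49 had enough counts to be tested, and 40 of them rose with leukemia while none fell (edgeR quasi-likelihood test with sex as a term, adjusted p under 0.05). Over all 15758 genes tested, 8.71% rose and 9.2% fell. The median log2 fold change was 3.51 over the tested segments and -0.01 over all genes tested. A segment could reach the test through its leukemic libraries alone, which favours differences. Of the 14 tested segments that reached the filter's 0.402 CPM in at least 3 non-leukemic libraries, 12 rose, and the other 2 did not pass. Of the other 35, 28 rose. Without both libraries that stand apart, 36 of 56 tested segments rose, 32 of them among the 40, and 14.9% of all 16300 genes tested rose. The 60 untested segments, 48 of them alpha variable, had at most 98 counts each and 193 counts in the non-leukemic against 1883 in leukemic libraries. All 6 leukemic values lay above all 6 non-leukemic values for 33 of the 109 segments and for 29 of the 49 tested, against 5.05% of all genes tested. The 33 included 10 of 69 alpha variable, 16 of 22 beta variable and 2 of 7 gamma variable segments. Only Trav6d-4, named for this reason after its values were seen, was found in non-leukemic libraries alone, and 21 segments were seen in leukemic libraries alone. A segment could meet the limit of 3 summed counts through its leukemic libraries alone. Non-leukemic libraries held 1354 receptor counts on average and leukemic ones 17008, and the same share over all genes was not computed. The 21 are therefore not read as a result about these segments.

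**Figure D1:**
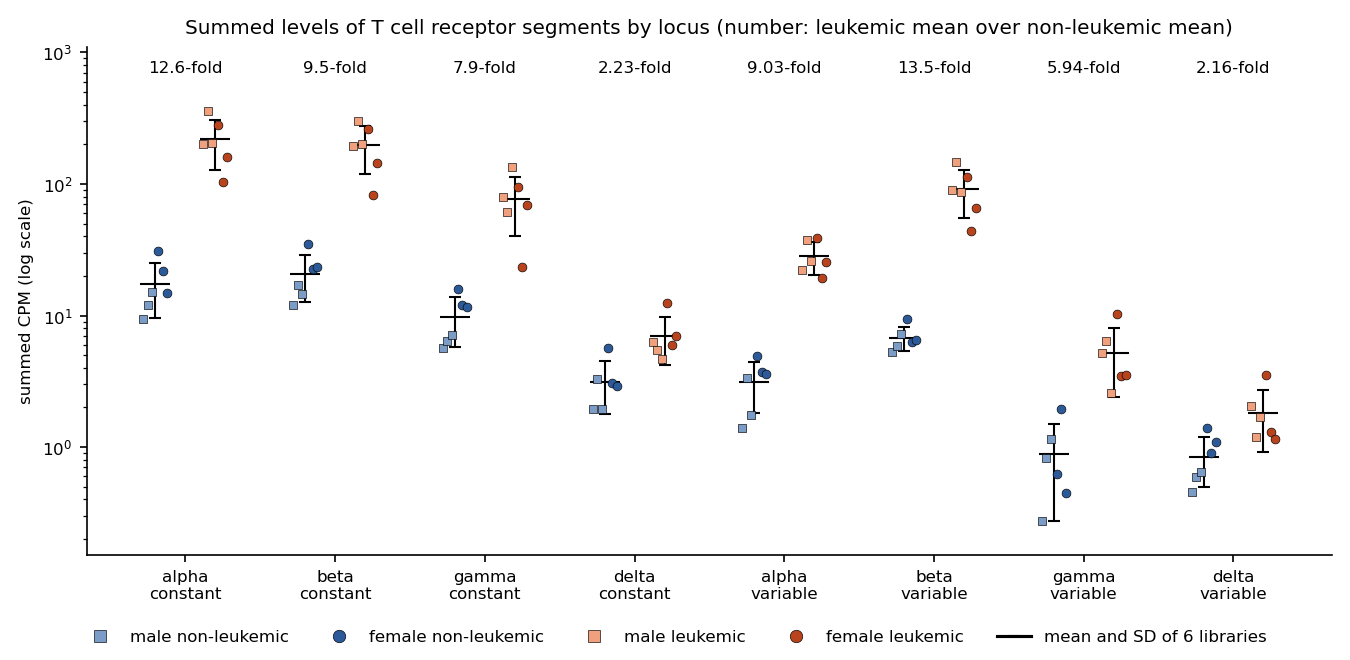
Summed CPM of the constant and the variable segments of each locus (log scale), with 1 point per library, squares for male and circles for female, and black bars for the mean and SD of the 6 libraries of a condition. The alpha and beta sums of the 2 conditions do not overlap, with ratios of 12.6 and 9.50 for the constant genes, while the delta sums overlap, with ratios of 2.23 and 2.16.

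Trac, the only constant gene of the alpha chain, was the most abundant segment, with 37812 counts. It ran from 9.43 CPM (median 14.96) to 31.1 CPM in non-leukemic and from 103 CPM (median 204) to 357 CPM in leukemic libraries. The lowest leukemic library, female replicate 2, thus stood above the highest non-leukemic one. Its log2 fold change was 3.64 ± 0.36 (SE; edgeR adjusted p = 3.43e-05). The Wilson 95% interval of the count in the library with the fewest Trac reads was 10.5 to 13.8 CPM around 12.1 CPM, and it covers counting error only.

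Of the beta constant genes, Trbc2 ran from 6.30 CPM (median 11.6) to 20.1 CPM in non-leukemic and from 52.7 CPM (median 137) to 196 CPM in leukemic libraries. Trbc1 ran from 5.80 CPM (median 8.36) to 14.8 CPM and from 29.1 CPM (median 61.0) to 107 CPM. Neither gene overlapped between the conditions. The log2 fold changes were 3.51 ± 0.36 for Trbc2 (SE; edgeR adjusted p = 4.19e-05) and 2.76 ± 0.34 for Trbc1 (SE; edgeR adjusted p = 0.000135). Per kilobase of the longest annotated transcript, mean levels in leukemic libraries were 233 CPM for Trac, 197 CPM for Trbc2 and 82.9 CPM for Trbc1.

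**Figure D2:**
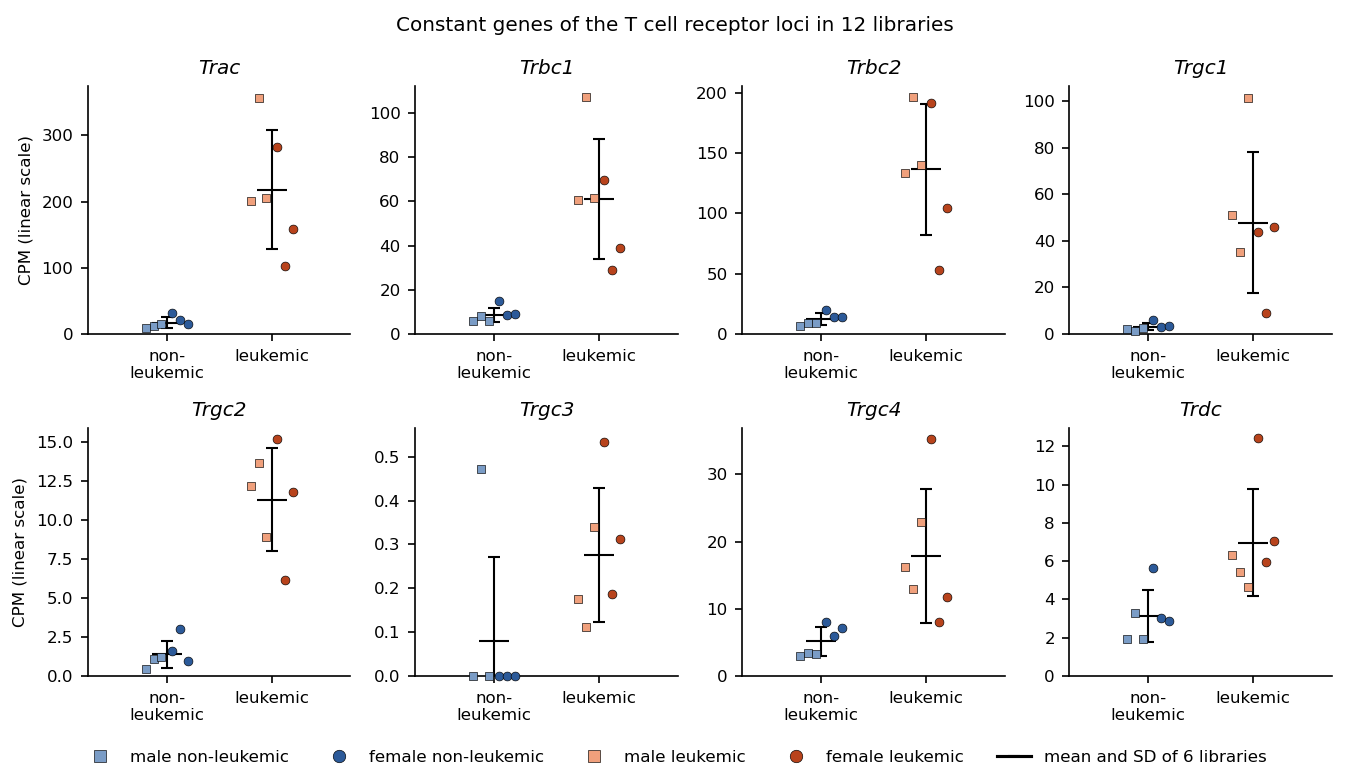
CPM of the 8 constant genes (linear scale, each panel with its own axis from 0), with 1 point per library, squares for male and circles for female, and black bars for the mean and SD of 6 libraries; bars that would pass below 0 end there. The leukemic libraries lie above all non-leukemic ones for Trac, Trbc1, Trbc2, Trgc1 and Trgc2, and the conditions overlap for Trgc3, Trgc4 and Trdc.

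Because a ratio within a library does not depend on the overall level of receptor RNA, the balance of the beta constant genes was tested as well. Trbc1 made up 38.0% (median 41.2%) to 47.9% of the Trbc1 and Trbc2 counts in the non-leukemic libraries and 26.6% (median 30.9%) to 35.6% in leukemic libraries. All 6 leukemic shares lay below all 6 non-leukemic shares, and the mean fell from 42.2 ± 4.22% to 31.1 ± 3.87% (SD, n = 6 each; exact two-sided permutation p = 0.00216, the smallest these libraries allow, and 0.00216 adjusted over the 2 ratios tested). The difference was present in both sexes, with means of 44.8% and 32.4% in male and 39.6% and 29.8% in female libraries.

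The joining segments of the beta locus lie in 2 clusters, each with its own constant gene, Trbj1 with Trbc1 and Trbj2 with Trbc2. These segments were not among the 109, and the following shares were looked at after the constant genes' values were seen and are given without a test. Trbj1 segments held 69.1% (median 73.5%) to 92.9% of the beta joining counts in the non-leukemic libraries and 49.2% (median 52.5%) to 59.8% in leukemic libraries, with no overlap. These shares rest on 174 Trbj1 and 57 Trbj2 counts in non-leukemic and 725 and 619 counts in leukemic libraries. The summed level of the Trbj1 segments was 1.35 ± 0.42 CPM and 4.43 ± 1.49 CPM (SD, n = 6 each), and that of the Trbj2 segments 0.45 ± 0.283 CPM and 3.82 ± 1.36 CPM (SD, n = 6 each). Within the Trbj1 level, Trbj1-1 alone was at 0.802 ± 0.259 CPM and 1.69 ± 0.692 CPM (SD, n = 6 each). This 1 segment thus weighs heavily in the non-leukemic shares.

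The gamma constant genes did not rise alike. Trgc1 ran from 1.42 CPM (median 2.83) to 6.22 CPM in non-leukemic and from 9.03 CPM (median 44.8) to 102 CPM in leukemic libraries, of which female replicate 2 was lowest and male replicate 3 highest. Trgc2 ran from 0.453 CPM (median 1.16) to 2.995 CPM and from 6.14 CPM (median 12.01) to 15.2 CPM. Neither overlapped between the conditions. Trgc4, the constant gene of the most separate sequence, ran from 2.99 CPM (median 4.71) to 8.09 CPM and from 7.98 CPM (median 14.6) to 35.3 CPM, with female leukemic replicate 2 just under the highest non-leukemic library. The log2 fold changes were 3.84 ± 0.52 for Trgc1 (SE; edgeR adjusted p = 0.000312), 3.04 ± 0.40 for Trgc2 (adjusted p = 0.000251) and 1.86 ± 0.37 for Trgc4 (adjusted p = 0.00396). Trgc3 had 53 counts in all and was not tested; it had counts in all 6 leukemic libraries and in 1 of the 6 non-leukemic libraries, male replicate 2.

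Trgc4 thus led the gamma constant genes in the non-leukemic libraries and Trgc1 in the leukemic ones. Trgc4 held 45.2 to 61.2% of the gamma constant counts in non-leukemic and 16.8 to 37.2% in leukemic libraries, without overlap, at means of 52.3 ± 5.29% and 24.4 ± 8.93% (SD, n = 6 each). Trgc1 held 32.2 ± 7.34% and 57.9 ± 13.7% (SD, n = 6 each), and these ranges met only at their ends, from 22.2 to 39.0% and from 38.7 to 75.9%. In the reference gene order of the RefSeq table of GRCm38.p6, Trgj1 directly precedes Trgc1 and Trgj4 directly precedes Trgc4. Trgj1 rose with a log2 fold change of 3.59 ± 0.66 (SE; edgeR adjusted p = 0.00233), and Trgj4, at 1.61 ± 0.70 (SE), did not pass (adjusted p = 0.139).

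Trdc, the constant gene of the delta chain, moved least of the tested constant genes. It ran from 1.93 CPM (median 2.97) to 5.65 CPM in non-leukemic and from 4.67 CPM (median 6.13) to 12.4 CPM in leukemic libraries. The highest non-leukemic library, female replicate 1, stood above 2 leukemic libraries, and female leukemic replicate 1 stood above all others. The log2 fold change was 1.11 ± 0.29 (SE; edgeR adjusted p = 0.0184), and over all alternatives run the adjusted p stayed between 0.00164 and 0.0494. The ratio of mean CPM was 2.23, and 1.88 without female leukemic replicate 1. Set against the alpha chain, there were 12.9 (median 18.8) to 27.5 Trdc counts per 100 Trac counts in non-leukemic and 1.52 (median 3.77) to 5.79 in leukemic libraries. The log2 ratio of Trdc to Trac, with 1 count added to each, fell by 2.49, from -2.44 ± 0.40 to -4.93 ± 0.71 (SD, n = 6 each), and was lower in all 6 leukemic libraries than in any non-leukemic one (exact two-sided permutation p = 0.00216, the smallest possible, and 0.00216 adjusted over the 2 ratios). Its means in male libraries were -2.34 and -5.49, and in female libraries -2.54 and -4.36.

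**Figure D3:**
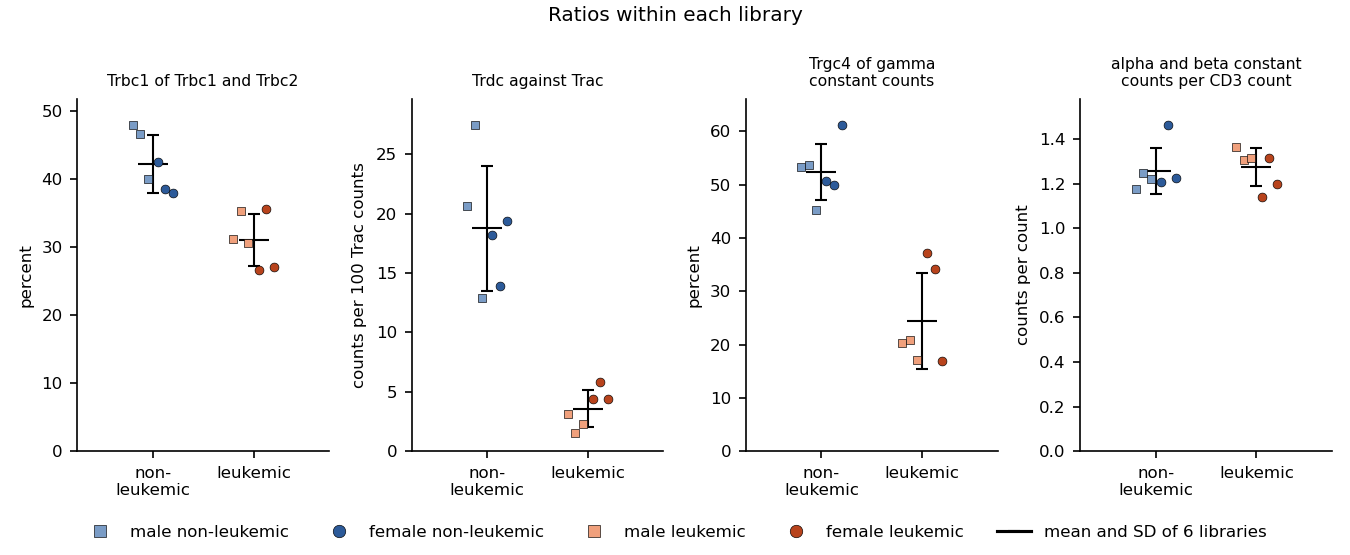
Ratios of receptor counts within each library (linear axes from 0): the Trbc1 share of Trbc1 and Trbc2, Trdc counts per 100 Trac counts, the Trgc4 share of the gamma constant counts, and the alpha and beta constant counts per Cd3d, Cd3e and Cd3g count; points are libraries, squares male and circles female, and bars are the mean and SD of 6. The first 3 ratios are lower in every leukemic library than in any non-leukemic one, and the last overlaps, at 1.26 and 1.27.

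Beta variable segments showed the clearest separation among the variable segments. Summed, they ran from 5.26 CPM (median 6.41) to 9.33 CPM in non-leukemic and from 44.1 CPM (median 88.6) to 146 CPM in leukemic libraries, a 13.5-fold ratio of means. All 17 of the beta variable segments tested rose, against 8.71% of all genes tested. Their median log2 fold change was 3.69, with a range of 2.59 to 6.36. Only Trbv1, Trbv3, Trbv12-2, Trbv13-2 and Trbv16 reached the filter's 0.402 CPM in at least 3 non-leukemic libraries. The others of the 17, Trbv19, Trbv2, Trbv15 and Trbv13-1 among them, needed their leukemic libraries to reach the test, which favours differences. Trbv12-1, Trbv14, Trbv26, Trbv29 and Trbv31 were at most at 0.258 CPM in any non-leukemic library. Trbv19 had the lowest p of any variable segment: it ran from 0 CPM (median 0.134) to 0.574 CPM in non-leukemic and from 2.53 CPM (median 5.47) to 18.3 CPM in leukemic libraries, with a log2 fold change of 5.14 ± 0.49 (SE; edgeR adjusted p = 2.61e-05). Trbv12-2 and Trbv13-2 were among the segments that led a non-leukemic library. They had log2 fold changes of 3.08 ± 0.32 (SE; edgeR adjusted p = 4.4e-05) and 2.60 ± 0.30 (SE; edgeR adjusted p = 9.85e-05). Trbv2 had 19 counts over the non-leukemic libraries and 1111 over the leukemic ones, and rose by 5.59 ± 0.69 (log2, SE; edgeR adjusted p = 0.000148). The other named beta segments also rose, Trbv31 by 4.65, Trbv16 by 3.04, Trbv15 by 3.97, Trbv13-1 by 3.59 and Trbv1 by 2.59 on the log2 scale. Trbv3, which also led a non-leukemic library, rose by 4.55. Of these, Trbv13-1 overlapped between the conditions, since female leukemic replicate 2 stood at 0.674 CPM and the highest non-leukemic library at 1.24 CPM.

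Within the beta variable counts the leading segment changed from library to library. Trbv13-2 led in 4 of the 6 non-leukemic libraries, Trbv12-2 led in male replicate 1 with 25.0% and Trbv3 in female replicate 1 with 17.9%. In the leukemic libraries Trbv3 led in male replicates 1 and 2 and female replicate 1, with 24.4% (Wilson 95% interval 22.8 to 26.1%), 30.3% (28.9 to 31.8%) and 23.1% (21.7 to 24.5%) of the beta variable counts. In male replicate 3, Trbv3 and Trbv13-2 tied with 363 counts each. Trbv16 led in female replicate 2 with 21.3% (19.1 to 23.7%), where the other leukemic libraries had 3.20 to 4.76%. Trbv19 led in female replicate 3 with 19.3% (17.4 to 21.4%). The intervals cover counting error only.

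Of the beta segments named here, only Trbv1 had shares that separated the groups. Trbv1 held 7.74 to 13.8% of the beta variable counts in non-leukemic and 3.53 to 6.56% in leukemic libraries, with no overlap. Trbv13-2 held 24.2 ± 6.96% and 11.98 ± 3.54% (SD, n = 6 each), with overlap through female non-leukemic replicate 1. Trbv19 held 2.17 to 3.43% in the male leukemic libraries and 16.1 to 19.3% in the female leukemic libraries, and 0 to 2% and 2.38 to 8.62% in the male and female non-leukemic ones. As a level, the sex by leukemia interaction of Trbv19 was -0.67 ± 0.91 (log2, SE; edgeR adjusted p = 0.899), and the shares themselves were not tested between the sexes.

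**Figure D4:**
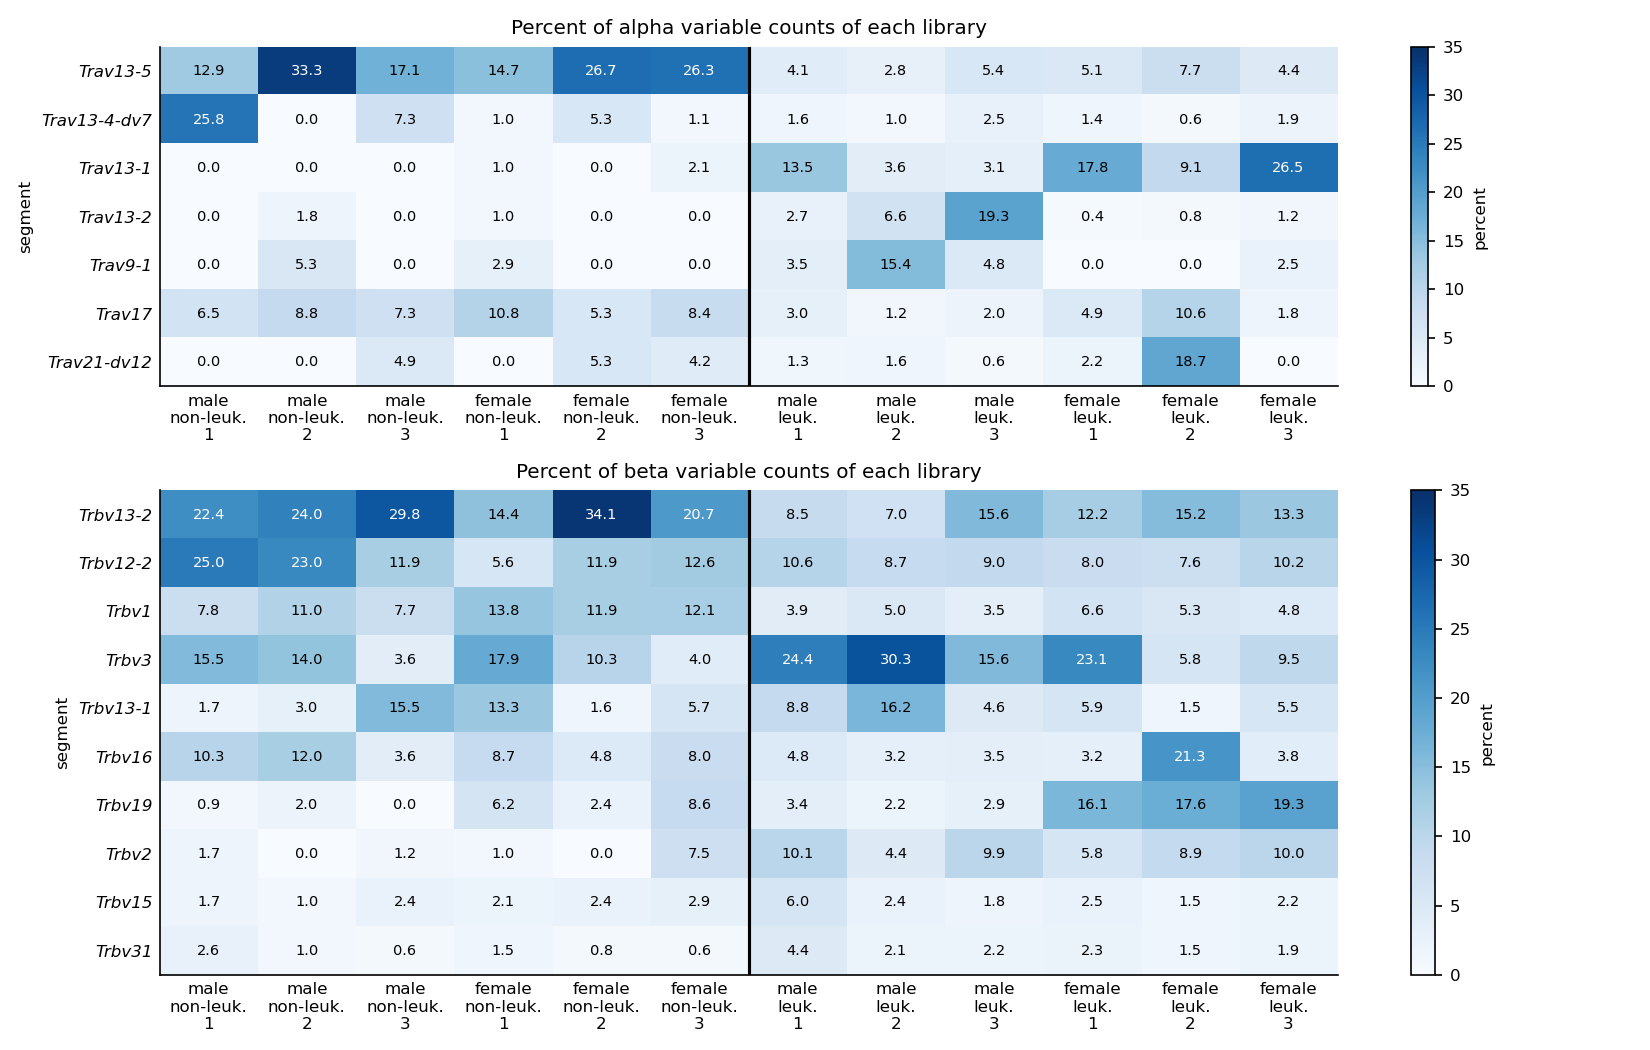
Percent of the alpha (top) and beta (bottom) variable counts of each library held by the segments named in the text, with 1 column per library, darker blue for a larger percent and the non-leukemic libraries left of the black line. Trav13-5 and Trbv13-2 are dark on the left, Trbv19 is dark in the 3 female leukemic libraries, at 16.1 to 19.3%, and the leading alpha segment differs between the leukemic libraries.

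Alpha variable segments summed to 1.40 CPM (median 3.47) to 4.88 CPM in non-leukemic and 19.4 CPM (median 25.6) to 38.6 CPM in leukemic libraries, a 9.03-fold ratio of means with no overlap. Of the 21 tested, 14 rose, against 8.71% of all genes tested, with a median log2 fold change of 3.57 over the 21. Apart from Trav13-5, none of the 21 reached the filter's 0.402 CPM in at least 3 non-leukemic libraries. The rest reached the test through their leukemic libraries, which favours differences, so the 14 cannot be set plainly against that share. Trav13-1 had the largest log2 fold change of the tested segments, 7.08 ± 0.76 (SE; edgeR adjusted p = 5.88e-05). It rested on 3 non-leukemic and 547 leukemic counts, a depth-scaled ratio of 147 (exact 95% interval 50.05 to 715), and was at 0 in 4 of the 6 non-leukemic libraries. Trav13-2, with 2 and 231 counts, had a log2 fold change of 5.46 ± 1.06 (SE; edgeR adjusted p = 0.00323). Trav9d-1, which was not tested, had 0 and 98 counts. Its pooled, depth-scaled ratio was 26.3 against a floor of 3 counts over the non-leukemic group. Male leukemic replicate 2 held 58 of the 98 counts, and female leukemic replicate 1 held 0. Of its 50-base stretches, 68.1% occur in another segment. Trav9d-1 was chosen for mention because its sequence is shown above.

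Trav13-5 behaved otherwise. It led the alpha segments in 5 of the 6 non-leukemic libraries, where it ran from 0.181 CPM (median 0.829) to 1.12 CPM, and ran from 0.91 CPM (median 1.25) to 1.97 CPM in leukemic libraries. Its log2 fold change of 0.88 ± 0.47 (SE) did not pass (edgeR adjusted p = 0.232). Its share of the alpha variable counts was 12.9 to 33.3% in non-leukemic and 2.79 to 7.72% in leukemic libraries, with no overlap. Only 4.51% of its 50-base stretches occur in another segment, so it is among the better resolved alpha segments.

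The leading alpha segment of the leukemic libraries was not the same one throughout. Trav13-1 led in male replicate 1 with 13.5%, in female replicate 1 with 17.8% and in female replicate 3 with 26.5% of the alpha variable counts. Trav9-1 led in male replicate 2 with 15.4% and was at 0 in female leukemic replicates 1 and 2. Trav13-2 led in male replicate 3 with 19.3% and Trav21-dv12 in female replicate 2 with 18.7%. Neither Trav9-1, at a log2 fold change of 3.84 ± 1.49 (SE; edgeR adjusted p = 0.0971), nor Trav21-dv12, at 3.38 ± 1.16 (SE; edgeR adjusted p = 0.0621), passed in the comparison of all 12 libraries. Trav9-1 passed without female non-leukemic replicate 1, without female leukemic replicate 1 and in a fit with no sex term. Trav21-dv12 passed without female leukemic replicate 3, without both libraries that stand apart and in DESeq2. Trav13-4-dv7 led in male non-leukemic replicate 1 with 8 counts, 25.8% of 31, and did not pass (log2 fold change 1.62 ± 0.80, SE; edgeR adjusted p = 0.2). Trav17 rose by 1.84 ± 0.56 (log2, SE; edgeR adjusted p = 0.0383), but it passed in 4 of 19 alternatives only, and leaving out any library but male non-leukemic replicate 2 or female leukemic replicate 3 lost the call.

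Gamma and delta variable segments were scarce. Trgv2 led the gamma variable counts in 11 of 12 libraries and rose from 0.489 ± 0.408 CPM to 3.24 ± 1.48 CPM (SD, n = 6 each), with a log2 fold change of 2.698 ± 0.54 (SE; edgeR adjusted p = 0.00394) and no overlap. Trgv1 led in male non-leukemic replicate 2 with 8 of 14 counts, and its log2 fold change of 2.18 ± 0.93 (SE) did not pass (edgeR adjusted p = 0.133), while limma-voom called it (adjusted p = 0.0327). Trgv4 passed with 2.51 ± 0.78 (log2, SE; edgeR adjusted p = 0.0412), but in 6 of 19 alternatives only; leaving out any of 9 libraries lost the call, all but male non-leukemic replicate 3 and female leukemic replicates 2 and 3. Trgv3, Trgv5, Trgv6 and Trgv7 had 15, 18, 7 and 7 counts in all and were not tested. Of the delta variable segments, Trdv4 ran from 0.453 to 1.00 CPM in non-leukemic and from 0.446 to 1.82 CPM in leukemic libraries and did not pass (log2 fold change 0.85 ± 0.47, SE; edgeR adjusted p = 0.246). Trdv1 and Trdv5 had 85 and 28 counts and were not tested. Female leukemic replicate 1 held the highest level of Trgv1, Trgv4, Trgv5, Trdv1 and Trdc, and it is the library in which the B cell list was highest; the part of that difference in these values was not tested.

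More segments were seen in every leukemic library than in any non-leukemic one, and the difference was smaller when the libraries were set to an equal number of counts. At least 1 count was found for 34 (median 49) to 60 of the 109 segments in non-leukemic and 84 (median 90) to 98 in leukemic libraries. Beta variable segments seen were 13 to 17 and 21 to 22 of 22, and alpha variable segments 11 to 29 and 45 to 60 of 69. To set the libraries at 1 depth, the number of variable segments expected among 163 variable counts, the total of the smallest library, was computed for each. It was 36.1 ± 5.28 and 40.6 ± 1.84 (SD, n = 6 each), and the conditions overlapped, with female non-leukemic replicate 1 at 43.0 above 5 of the 6 leukemic libraries. The difference of 4.52 segments was 0.97 when segments were pooled by family number, over 50 families. The effective number of segments, the inverse of the Simpson index, was 9.87 ± 3.24 and 16.3 ± 4.94 for the alpha and 7.28 ± 1.47 and 8.94 ± 1.42 for the beta locus (SD, n = 6 each), with overlap in both. It was not set to equal counts, and non-leukemic libraries held 31 to 102 alpha variable counts against 518 to 1159 in leukemic ones. Depth can therefore add to its difference. At 31 alpha variable counts, 14.3 ± 2.03 and 17.9 ± 1.78 alpha segments were expected. At 100 beta variable counts, 14.4 ± 1.00 and 16.5 ± 0.457 beta segments were (SD, n = 6 each), with overlap in both.

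**Figure D5:**
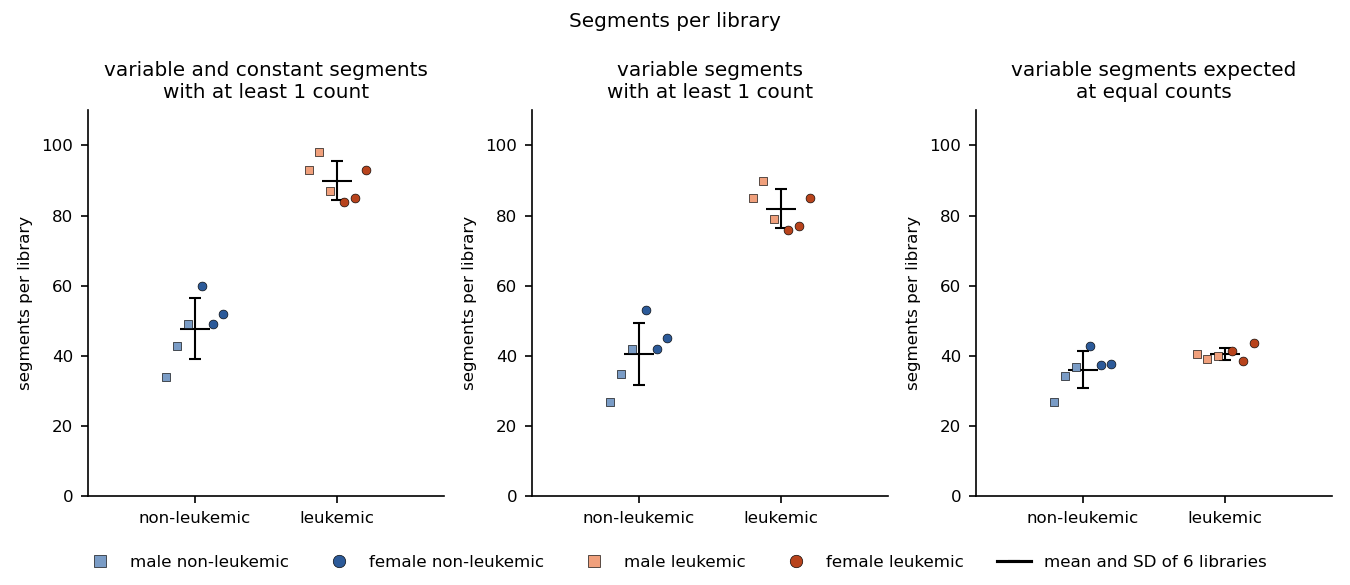
Number of segments per library with at least 1 count, for all 109 segments (left) and the variable segments (middle), and the number of variable segments expected at 163 variable counts (right); points are libraries, squares male and circles female, and bars are the mean and SD of 6. The conditions are separate in the left and middle panels, at 34 to 60 against 84 to 98 segments on the left, and overlap on the right.

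Receptor levels were higher with leukemia in both sexes. The 109 segments summed to 45.2 ± 7.52 CPM and 728 ± 168 CPM in the male libraries and to 80.2 ± 20.8 CPM and 525 ± 270 CPM in the female libraries (SD, n = 3 each), ratios of 16.1 and 6.54. Of the 49 tested segments, 29 rose in the male libraries, where 3.34% of all genes rose, and 20 rose in the female libraries, where 3.84% did; none fell in either. No segment passed for the interaction of sex and leukemia, and 0% of all genes did (edgeR, adjusted p under 0.05); 3 segments had an unadjusted p under 0.05, and DESeq2 called none. These were Trbc1 with -1.27 ± 0.54, Trav14n-3 with -4.41 ± 1.34 and Trav4-4-dv10 with 5.78 ± 1.996 (log2, SE), with adjusted p of 0.815 or more; Trav14n-3 and Trav4-4-dv10 are named only for these p. For Trac the log2 fold change was 4.23 ± 0.47 in the male and 3.06 ± 0.45 in the female libraries, an interaction of -1.17 ± 0.59 (SE; edgeR adjusted p = 0.819). Trdc passed in neither sex alone (adjusted p = 0.177 male and 0.114 female). The counts depended on single libraries: the female count was 11, 13 and 10 without female non-leukemic replicate 1, 2 and 3. The male count was 17 and 18 without male non-leukemic replicate 1 and 2, and 19, 17 and 17 without male leukemic replicate 1, 2 and 3.

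The CD3 chains, which carry every T cell receptor to the surface, were higher by a similar ratio as the alpha and beta constant genes. Cd3d, Cd3e and Cd3g together were at 30.3 ± 12.8 CPM in non-leukemic and 329 ± 138 CPM in leukemic libraries (SD, n = 6 each), a 10.8-fold ratio. Counts of Trac, Trbc1 and Trbc2 per Cd3d, Cd3e and Cd3g count were 1.26 ± 0.104 and 1.27 ± 0.0855 (SD, n = 6 each). Of a list of 15 CD3 complex and signalling genes, 14 rose and none fell (median log2 fold change 2.74), where 8.71% of all genes tested rose and 9.2% fell. The zeta chain gene Cd247 had a log2 fold change of 3.56 ± 0.35 (SE, edgeR adjusted p = 3.26e-05). Of 9 T cell coreceptor and surface genes, 8 rose, with a median of 2.66, among them the helper coreceptor Cd4 with 2.34 ± 0.36 and the cytotoxic coreceptor Cd8a with 2.86 ± 0.28 (log2, SE; edgeR adjusted p = 0.000678 and 3.1e-05). There were 5.09 ± 1.36 Cd4 counts per Cd8a count in non-leukemic and 3.96 ± 2.08 in leukemic libraries (SD, n = 6 each), with overlap.

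Genes of receptor assembly did not pass. None of the 3 tested of 4 recombination and pre-receptor genes rose or fell: the recombinase gene Rag1 had a log2 fold change of 0.72 ± 0.65, Rag2 0.25 ± 0.33 and Dntt, which adds bases at the joints, 0.79 ± 0.28 (SE; edgeR adjusted p = 0.513, 0.664 and 0.0747). Rag1 and Rag2 also serve B cell precursors, and the adjusted p of Dntt lay below 0.05 without male non-leukemic replicate 1 or 3, without both libraries that stand apart, in DESeq2 and in limma-voom. Ptcra, which encodes the surrogate alpha chain of thymocytes, had 1 count in the 12 libraries. Of 5 tested genes of a list for gamma delta T cells, none passed, with a median log2 fold change of -0.07; its member Sox13 had 0.50 ± 0.26 (SE; edgeR adjusted p = 0.217).

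Markers of other cells moved beside the receptor segments. For the counts that follow, the shares of all genes tested were 8.71% for a rise and 9.2% for a fall. Of 9 genes of natural killer cells, 8 rose, with a median log2 fold change of 1.31, and the list held 0.00783 to 0.0176% of the counts in non-leukemic and 0.0287 to 0.0553% in leukemic libraries. Its member Ncr1 had 1.31 ± 0.23 and Klrb1c 0.72 ± 0.23 (log2, SE; edgeR adjusted p = 0.00176 and 0.0455); Klrb1c passed in 7 of 20 alternatives only and lost its call without any of 9 libraries, all but female non-leukemic replicate 1 and female leukemic replicates 2 and 3. None of 10 B cell genes passed (median -0.27; Cd79a, a chain of the B cell receptor complex, had -0.28), and the list held 0.402 to 2.24% and 0.405 to 7.66% of the counts. All 9 erythroid genes fell (median -4.32), from 1.43 to 1.88% of the counts to 0.0558 to 0.133%, and 6 of 10 neutrophil genes fell and none rose (median -1.48), from 2.75 to 6.33% to 1.24 to 2.62%. Of 11 macrophage and sort-gate genes, 1 rose, Ptprc, which encodes CD45, with 0.64 ± 0.18 (log2, SE; edgeR adjusted p = 0.0238), and 4 fell, Adgre1 among them with -1.25 ± 0.30 (log2, SE; edgeR adjusted p = 0.0129). Ptprc lost its call without male non-leukemic replicate 1 or 2. The part of these shifts in the receptor results was not tested.

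The joining and diversity segments, which the name rule did not take, went the same way as the variable ones where they could be tested. Of 84 such names, 73 had a count, 13 were tested and 10 rose while none fell (median log2 fold change 3.18). Over all genes tested, 8.71% rose. Apart from Trbj1-1, none of the 13 reached the filter's 0.402 CPM in at least 3 non-leukemic libraries. The rest needed their leukemic libraries to reach the test, which favours differences. The diversity segment Trbd2 had 4.18 ± 0.64 (log2, SE; edgeR adjusted p = 0.000731) and Trbj2-7 4.18 ± 0.76 (log2, SE; edgeR adjusted p = 0.002235). Trbj1-1, with 1.06 ± 0.40 (log2, SE; edgeR adjusted p = 0.0929), and Trbj1-3, with 2.45 ± 0.81 (log2, SE; edgeR adjusted p = 0.0522), did not pass. Alpha joining segments summed to 0.42 ± 0.307 CPM and 4.38 ± 1.61 CPM and beta joining segments to 1.80 ± 0.68 CPM and 8.25 ± 2.75 CPM (SD, n = 6 each), without overlap in either. These joining and diversity segments are named for illustration, after their values were seen.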

How the data were processed

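The deposited file holds the authors' raw counts per gene, 1 column per library, without normalization. GRCm39 is the build in the submitters' processing notes, which also list STAR 2.7.9a, featureCounts, Subread 2.0.1, bcl2fastq 2.19.1, fastp 0.23.1, R 4.0.2 and DESeq2 1.28.1 without order, settings or annotation release. Per the labels' protocols, 1 ng of RNA was amplified as cDNA before tagmentation; this kit keeps neither strand nor single molecules, so reads of overlapping genes cannot be told apart and intervals cover counting error only.

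Genes were filtered with filterByExpr over the 4 groups, which left 15758, and scaled by TMM. Differences were tested over all of them with the quasi-likelihood test of edgeR 4.0.16 (R 4.3.3, robust) with sex as a term, p adjusted by Benjamini and Hochberg, threshold 0.05; each sex and the interaction were contrasts of 4 group means. SE is the log2 fold change divided by the square root of F. Sums over segments carry no p. Rarefaction was exact. The 2 ratios were tested by exact permutation (scipy 1.17.1). The pipeline was tested on simulated data. Libraries of a group differed by a chi-square of at least 22.6 per degree of freedom, so none was deposited in duplicate.

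Named by rule were all constant, gamma and delta segments, the 5 most abundant and each library's leading segment of the alpha and beta variable segments, the 10 variable segments of lowest p, and 18 fixed genes, 1 of which is not reported here. Members, lists and tests were chosen with earlier results of these data known.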

Additional observations from a re-analysis of the deposited data

Results flagged for a closer look

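In 16 of 100 groups of 6 libraries checked, 1 library lay far from the other 5 for its condition (Dixon's ratio at the 95% level). For independent, normally distributed values about 5% of groups would be flagged. Many of these levels are skewed or near 0 and the groups are related, so the 16 cannot be set against that share. Female leukemic replicate 1, which stands apart in other respects, was the far one for 5 segments: Trdc at 12.4 CPM against 4.67 to 7.04 CPM in the other leukemic libraries, Trgv4 at 2.50 CPM against 0.375 to 0.84 CPM, Trgv1 at 2.03 CPM against 0.415 to 0.974 CPM, Trdv1 at 1.60 CPM against 0 to 0.374 CPM, and Trgv5 at 0.366 CPM against 0 to 0.07 CPM.

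Single variable segments were far higher in 1 leukemic library: Trbv13-1 at 23.7 CPM and Trav9-1 at 5.77 CPM in male replicate 2, and Trbv16 at 9.40 CPM and Trav21-dv12 at 3.63 CPM in female replicate 2, against at most 7.88, 1.24, 4.68 and 0.833 CPM in the others. Among the non-leukemic libraries, female replicate 1 was high for Trbc1 at 14.8 CPM and for Trdc at 5.65 CPM, female replicate 2 for Trgv2 at 1.30 CPM, and female replicate 3 for Trbv2 at 0.489 CPM. Female non-leukemic replicate 2 also had 1.46 alpha and beta constant counts per CD3 chain count, against 1.18 to 1.25 in the others. Male non-leukemic replicate 2 alone of its condition had Trgc3, at 0.473 CPM. Male non-leukemic replicate 3 alone had Trgv6, at 0.043 CPM from 1 count.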

How the results depend on the processing

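Of the 109 segments, the number that rose was 40, and it was 40 with RLE size factors or without the sex term, 42 with DESeq2, 35 with limma-voom, 46 of 109 without a filter on low counts, 36 of 56 tested without both libraries that stand apart, and 36 to 46 of 55 to 65 tested when each library was left out in turn; no segment fell in any of these fits. Of all genes tested, 8.71% rose with all 12 libraries, 14.9% without both that stand apart and 5.99 to 12.1% with 1 left out. The share was 8.9% with RLE size factors, 8.67% without the sex term, 12% with DESeq2, 8.88% with limma-voom and 4.24% without a filter on low counts. With a filter of 5 CPM in 3 libraries only 13 segments were tested and 13 rose, since fewer could be tested, and 11.8% of all genes tested rose. Replicate numbers did not pair the libraries (18 same-numbered pairs, correlations -0.113 to 0.0782). With the replicate number as a block, 34 rose, all among the 40, and 7.81% of all genes tested rose. The female count of 20 was 25 with DESeq2, 13 in a fit of the female libraries alone and 10 to 21 when a library was left out; the cause was not tested. The male count of 29 was 34 with DESeq2, 30 in the male libraries alone and 17 to 33 when a library was left out. The ratio of the delta constant sums ran from 1.88 to 2.65 when a library was left out, and that of the alpha constant sums from 11.0 to 14.9. The Trbc1 share differed by -12.1 to -10.02 percentage points and the log2 ratio of Trdc to Trac by -2.65 to -2.27 (exact permutation p = 0.00433 each). Of 28 tested segments named, 23 kept their side of the threshold and direction under every alternative; the log2 fold change of Rag2 ran from -0.052, without female leukemic replicate 2, to 0.415, without female leukemic replicate 3, when 1 library was left out, and was 0.545 without both libraries that stand apart. Depth limits 60 segments, which had too few counts for a test.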
